A study of Mus musculus with 16 samples.

Results

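Bone morphogenetic proteins (BMPs) are secreted ligands that bring type I and type II serine/threonine kinase receptors together at the cell surface, after which the type I receptor phosphorylates Smad proteins that enter the nucleus. Secreted antagonists such as noggin and gremlin bind the ligands and keep them from the receptors. In bone the pathway is known for inducing osteoblast differentiation, and Bmp3 differs from the other ligands in that it dampens their action.

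Transcript levels of 10 genes of this pathway were examined in cortical bone: the ligands Bmp2, Bmp3, Bmp4, Bmp6 and Bmp7, the receptors Bmpr1a, Bmpr1b and Bmpr2, and the antagonists Grem1 and Nog. They were taken by gene symbol and not by a cut on a measured value, though with earlier results of these data known. All 10 are among the 36829 features listed. The bone came from 16 female C57Bl/6 mice that were 11 weeks old: 8 controls bore weight normally, and 8 mice underwent 7 days of hindlimb unloading (HLU), in which a tail harness keeps the hind limbs off the floor. Bone ends were cut off and the marrow was flushed out before freezing, and each mouse gave 1 RNAseq library. No allele or drug treatment is named for either group. The harness was taped to the tail of the HLU mice under isoflurane anesthesia. No anesthesia is described for the controls, and its effect was not tested. Values are in RPKM, the reads on a gene relative to its length and to the size of the library, so that levels of different genes can be set side by side.

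None of the 10 genes changed past the test after HLU, and the data describe mainly how much of each was present and which of them moved together from mouse to mouse. In the deposited RPKM, Bmp3 was the highest of the 5 ligands in 16 of 16 mice, an order that depends on the gene lengths used. With the same reads divided by exon lengths of GENCODE M21, Bmp6 was the highest in 10 mice, Bmp4 in 4, and Bmp2 and Bmp3 in 1 each. Reads were not recounted over those exons, so the true order of the ligands was not settled. Grem1 exceeded Nog and Bmpr1a exceeded Bmpr2 in 16 of 16 mice with either length. The lowest unadjusted p among the 9 genes fitted by limma was that of Bmpr1a, at 6.84 ± 1.88 RPKM in controls and 9.70 ± 3.33 RPKM after HLU (SD, n = 8 mice each). Across mice Bmp2 rose and fell with Bmp3, Bmp4 with Bmp6 and Bmp7, and Bmpr1a with Bmpr2 and Nog, by Pearson's r. The relations of Bmp4 did not pass by rank after adjustment. None of these pairs passed the adjusted threshold once the 2 mice farthest from the median were left out.

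The libraries had been scaled by 7067512 to 21363584 reads each, and Control 2 and HLU 5 were the smallest. Osteoblast lineage markers identified the tissue, with 17 of 17 listed, none at 0 in any mouse, and a summed level of 1740 to 5060 RPKM. Marrow-derived transcripts remained after flushing: the 8 granulocyte markers listed summed to 12400 to 44600 RPKM. The 11 erythroid markers listed summed to 2390 to 5420 RPKM in controls and 1120 to 3090 RPKM after HLU, none of them at 0 in any mouse, and 0 of 11 had a log2 change above 0. Their mean log2 score was lower after HLU by an exact permutation test (difference of -0.58, p = 0.0466). The 6 megakaryocyte markers had a difference of -0.53 (exact permutation p = 0.0503) and the granulocyte markers one of -0.12 (p = 0.628 by the same exact test). The other scores, for osteocytes, B lymphocytes, adipocytes, endothelium, chondrocytes, marrow stroma and osteoclasts, differed by -0.41 to 0.44 with exact permutation p of 0.0732 to 0.938. For a bulk sample such as this, fewer cells of a type and less RNA per cell cannot be told apart.

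The promoters of 4 of the genes are given here because the pairs Bmp4 with Bmp6 and Bmpr1a with Bmpr2 were among those that varied together by Pearson's r. Bmp4 with Bmp6 did not pass by rank (adjusted p of rho 0.202, permutation). The other pairs that passed could not be shown, since no promoter was matched for Bmp2, Bmp3, Bmp7 and Nog. Each run is the 250 bases before the RefSeq transcript start, read 5′ to 3′ on the gene's strand, in GRCm38.p6. Capitals mark 4 motifs searched on both strands: the GC box GGGCGG, the GC-rich Smad1 and Smad5 sequence GGCGCC, the TATA box TATAAA and the E-box CACGTG, where touching matches share letters. The windows are chr14:46390670-46390919 (minus strand) for Bmp4, chr13:38345466-38345715 (plus strand) for Bmp6, chr14:34502547-34502796 (minus strand) for Bmpr1a and chr1:59764029-59764278 (plus strand) for Bmpr2.
Bmp4: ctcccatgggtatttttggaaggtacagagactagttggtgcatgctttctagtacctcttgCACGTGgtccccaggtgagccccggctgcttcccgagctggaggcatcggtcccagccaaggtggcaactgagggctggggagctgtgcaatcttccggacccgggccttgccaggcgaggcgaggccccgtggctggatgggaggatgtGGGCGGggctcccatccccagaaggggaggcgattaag
Bmp6: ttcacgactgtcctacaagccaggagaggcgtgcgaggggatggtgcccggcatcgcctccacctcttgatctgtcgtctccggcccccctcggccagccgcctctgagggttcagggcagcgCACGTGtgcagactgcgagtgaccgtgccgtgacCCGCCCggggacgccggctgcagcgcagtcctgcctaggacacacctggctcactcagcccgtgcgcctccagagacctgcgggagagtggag
Bmpr1a: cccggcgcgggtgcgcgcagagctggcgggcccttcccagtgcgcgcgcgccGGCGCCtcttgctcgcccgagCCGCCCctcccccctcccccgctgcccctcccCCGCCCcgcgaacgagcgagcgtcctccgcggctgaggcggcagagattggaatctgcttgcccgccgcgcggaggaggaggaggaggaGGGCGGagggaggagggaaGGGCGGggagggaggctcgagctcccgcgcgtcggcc
Bmpr2: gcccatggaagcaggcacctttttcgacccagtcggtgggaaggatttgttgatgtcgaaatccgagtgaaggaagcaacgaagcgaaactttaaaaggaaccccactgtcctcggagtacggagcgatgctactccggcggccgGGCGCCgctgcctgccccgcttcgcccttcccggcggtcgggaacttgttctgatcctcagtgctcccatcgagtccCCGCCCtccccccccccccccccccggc
The Bmp4 and Bmp6 windows each hold 1 E-box and 1 GC box, and neither holds the Smad sequence. The Bmpr1a and Bmpr2 windows each hold 1 Smad sequence, with 4 GC boxes in Bmpr1a and 1 in Bmpr2, and no E-box. The Grem1 window, not printed here, likewise holds 1 Smad sequence, 3 GC boxes and no E-box. Grem1 was not among the genes that varied together. Of 32851 RefSeq promoters of this length, 6.02% hold the E-box, 32.7% the GC box, 9.59% the Smad sequence and 12.4% the TATA box, which is in none of the 4 windows. The GC content of the windows is 63.2% for Bmp4, 68.8% for Bmp6, 78.8% for Bmpr1a and 64.0% for Bmpr2, against a median of 52.4% over all promoters. These are matches of letters only, and binding was not measured here. A link of the motifs to the covariation was not tested.

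In the control mice the mean levels ran, from high to low, Bmp3, Grem1, Bmpr1a, Bmp6, Bmp2, Bmp4, Bmpr2, Nog, Bmp7 and Bmpr1b. The medians gave the same order. Each of the 9 neighbouring pairs was compared within mice by a two-sided exact permutation test that flips the sign of the log2 ratio, with Benjamini-Hochberg adjustment over the 9. Bmpr1a exceeded Bmp6 in 7 of 8 control mice (mean log2 ratio 0.82, exact p = 0.0156, adjusted p = 0.0468). Bmp4 exceeded Bmpr2 in 7 of 8 (0.87, exact p = 0.0156, adjusted p = 0.0468), and Bmp7 exceeded Bmpr1b in 8 of 8 (2.08, exact p = 0.00781, adjusted p = 0.0468). Bmp2 against Bmp4 (exact p = 0.0469, adjusted p = 0.0844) and Bmpr2 against Nog (exact p = 0.0234, adjusted p = 0.0527) passed only before adjustment. The other 4 neighbours did not differ beyond their spread: Bmp3 and Grem1, Grem1 and Bmpr1a, Bmp6 and Bmp2, and Nog and Bmp7 (exact p = 0.25 to 0.789). In the deposited RPKM, Bmpr2 exceeded Nog in 7 of 8 control mice and in 2 of 8 HLU mice, a difference between the groups that was not tested. With the same reads divided by the GENCODE lengths described below, the control means turned for Bmpr2 (0.268) against Nog (1.13) and for Bmp2 (3.58) against Bmp4 (4.55). They also turned for Bmp3 (3.68) against Grem1 (8.14). The pairs that passed after adjustment kept the order of their means.

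A level in RPKM depends on the length the authors used, which the values themselves reveal. For Bmpr2 it was 3507 bases, while the exons of GENCODE M21 cover 17983 bases. For Bmp3 it was 3112 against 7398 bases, for Bmp4 3834 against 2248, and for Bmpr1b 10136 against 5962. For Bmp2 (3555 bases) and Grem1 (4148 bases) the lengths were equal. With the GENCODE lengths, a comparison added after the values had been seen, the control means of the ligands were 4.84 ± 0.942 for Bmp6, 4.55 ± 1.37 for Bmp4, 3.68 ± 1.30 for Bmp3, 3.58 ± 0.862 for Bmp2 and 1.04 ± 0.589 for Bmp7 (reads per kilobase on the same library scale, SD, n = 8), and Bmp3 made up 20.6% of their sum. Bmpr2 then came to 0.268 ± 0.0508, above Bmpr1b in 10 of 16 mice. Only the length was exchanged here: the reads are those counted over the authors' gene models. Reads on exons that only GENCODE holds are therefore missing from these levels. Which of the lengths fits the transcripts of this bone was not tested. A length is the same in both groups. It still affects which genes reach the filter of 0.5 RPKM, and the weight of the 0.1 added before log2. The same reads over the GENCODE length put Bmpr2 under that filter (0.268 in controls, 0.267 after HLU). Whether Bmpr2 would reach it with reads counted over the GENCODE exons was not tested.

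**Figure D1:**
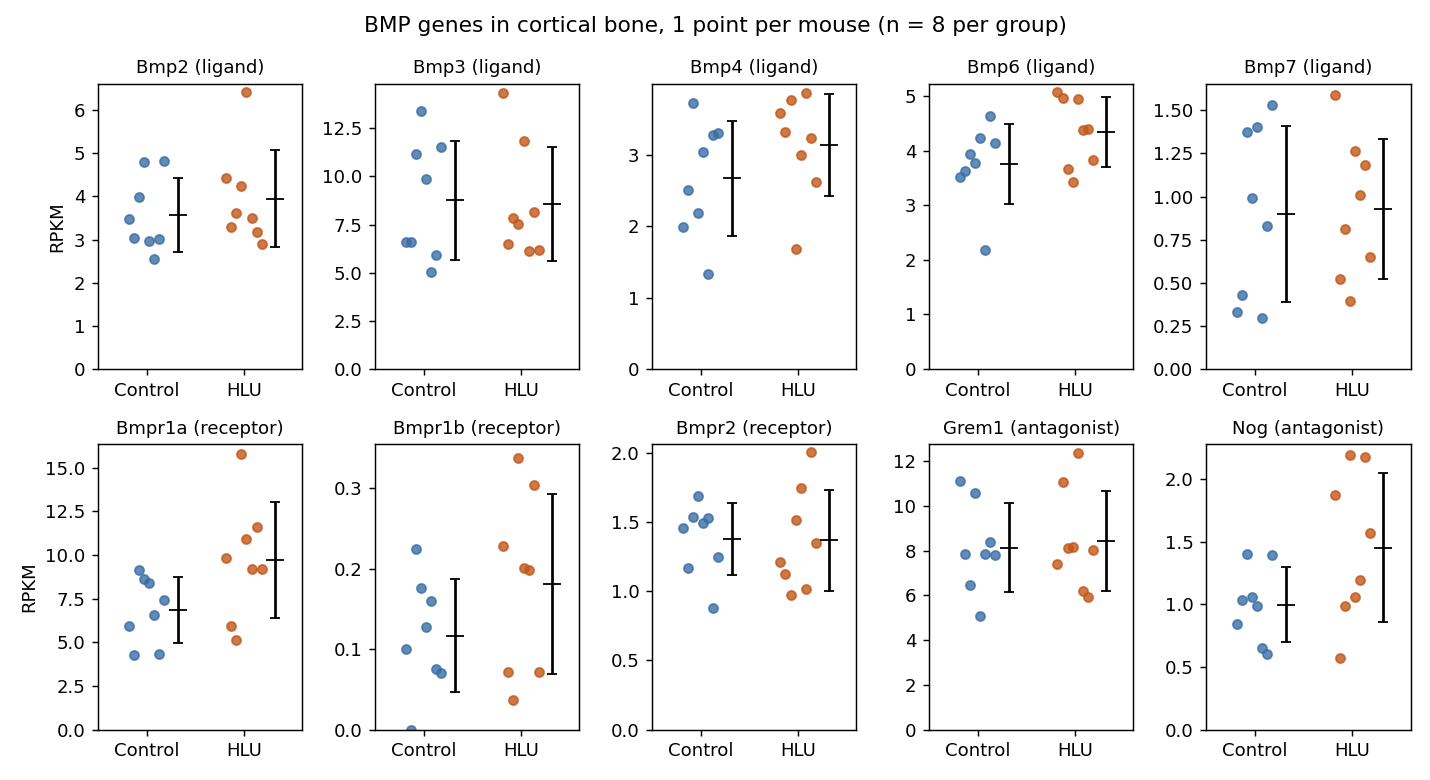
Level of each of the 10 genes in RPKM (vertical axes, each from 0) in every mouse, controls in blue and HLU mice in orange, with the mean and SD of the 8 mice of a group as a black bar beside them. The groups overlap in every panel, and Bmpr1a is above every control in 6 of 8 HLU mice.

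Bmp3, the ligand that dampens the action of the others, ranged from 5.03 to 13.4 RPKM in controls (median 8.22) and from 6.14 to 14.4 RPKM after HLU (median 7.68). The ranges overlapped almost wholly, and only 2 of 8 HLU mice were above the control median. On the log2 scale HLU minus control was -0.02 (standard error 0.23, 95% interval -0.50 to 0.47, limma adjusted p = 0.984). Bmp3 lies on chr5:98854415-98884396 (GRCm38) with no overlapping gene. With the authors' lengths its share of the summed RPKM of the 5 ligands was 43.8 ± 5.64% in controls and 40.2 ± 5.32% after HLU (SD, n = 8).

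Bmp2, an osteoinductive ligand, ranged from 2.56 to 4.81 RPKM in controls (median 3.25) and from 2.90 to 6.42 RPKM after HLU (median 3.55). A single HLU mouse exceeded every control. The log2 difference was 0.13 (standard error 0.17, 95% interval -0.23 to 0.49, limma adjusted p = 0.85). It made up 18.5 ± 2.83% of the summed ligands in controls and 18.9 ± 3.33% after HLU (SD, n = 8).

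Bmp4, an osteoinductive ligand closely related to Bmp2, ranged from 1.33 to 3.73 RPKM in controls (median 2.78) and from 1.68 to 3.87 RPKM after HLU (median 3.28). Of the HLU mice, 6 of 8 lay above the control median and 2 of 8 above every control. HLU mice differed from controls by 0.25 on the log2 scale (standard error 0.21, 95% interval -0.19 to 0.69, limma adjusted p = 0.766). The interval for the fold runs from 0.875 to 1.61. Gm15217 and Gm15222 overlap Bmp4 on the opposite strand, and reads of a kit that does not mark strand cannot be told apart between them.

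Bmp6, a ligand also known for controlling hepcidin and so iron, ranged from 2.18 to 4.64 RPKM in controls (median 3.85) and from 3.42 to 5.08 RPKM after HLU (median 4.39). Of the HLU mice, 3 of 8 exceeded every control. The log2 difference was 0.22 (standard error 0.14, 95% interval -0.08 to 0.52, limma adjusted p = 0.75), and the unadjusted p of 0.147 fell to 0.0397 with median-of-ratios scaling (log2 difference 0.30) and to 0.0269 with quantile normalization (0.32). Txndc5 and 4930579J19Rik overlap Bmp6 on the opposite strand.

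Bmp7 was the scarcest ligand, with 14 to 144 reads a mouse. It ranged from 0.295 to 1.53 RPKM in controls (median 0.908) and from 0.395 to 1.59 RPKM after HLU (median 0.910), so that the 2 medians nearly coincided while the mice within a group differed up to 5.20-fold. Between the groups the log2 difference was 0.14 (standard error 0.36, 95% interval -0.62 to 0.89, limma adjusted p = 0.93). The sum of the 5 ligands was 19.7 ± 5.12 RPKM in controls and 20.9 ± 4.73 RPKM after HLU (SD, n = 8), a difference within the spread between mice (exact permutation p = 0.565).

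Bmpr1a, a type I receptor that osteoblasts use, ranged from 4.27 to 9.12 RPKM in controls (median 6.99) and from 5.13 to 15.8 RPKM after HLU (median 9.52). In HLU 2 and HLU 3, at 5.92 and 5.13 RPKM, it lay within the control range, and in the other 6 HLU mice it lay above every control. The log2 difference was 0.47 (standard error 0.22, 95% interval -0.00 to 0.95, limma unadjusted p = 0.05005, adjusted p = 0.744), a fold of 1.39 with an interval of 1.00 to 1.93. The exact permutation test gave p = 0.0651. Gm17110 overlaps Bmpr1a on the opposite strand. The result sat at the threshold: the unadjusted limma p was 0.0304 with median-of-ratios scaling (log2 difference 0.56) and 0.126 with the erythroid and granulocyte scores as covariates, where the difference was 0.28.

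The other type I receptor, Bmpr1b, was at the edge of detection, with 0 to 56 reads a mouse, and it did not reach the mean of 0.5 RPKM that the limma fit required. It was listed at 0 in Control 2, where 3 reads would have been 0.0419 RPKM. It ranged from 0 to 0.224 RPKM in controls (median 0.114) and from 0.0373 to 0.338 RPKM after HLU (median 0.200), with 3 of 8 HLU mice above every control. The difference of 0.34 in log2(RPKM + 0.1) was within the spread between mice (exact permutation p = 0.257), which was 9.06-fold from lowest to highest among the HLU mice.

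Bmpr2, the type II receptor dedicated to BMPs, ranged from 0.878 to 1.69 RPKM in controls (median 1.48) and from 0.970 to 2.01 RPKM after HLU (median 1.28). HLU minus control was -0.02 on the log2 scale (standard error 0.17, 95% interval -0.39 to 0.35, limma adjusted p = 0.976). Gm38125 overlaps Bmpr2 on the same strand. Bmpr1a stood at 3.65 to 5.95 times the level of Bmpr2 in controls (median 5.04) and at 5.25 to 10.4 times after HLU (median 6.55). The group ranges of this ratio overlapped, and they were not tested.

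Grem1, an antagonist of Bmp2, Bmp4 and Bmp7, ranged from 5.08 to 11.1 RPKM in controls (median 7.85) and from 5.93 to 12.4 RPKM after HLU (median 8.09). The groups differed by 0.05 on the log2 scale (standard error 0.18, 95% interval -0.33 to 0.42, limma adjusted p = 0.951). Nog, which encodes noggin, ranged from 0.601 to 1.41 RPKM in controls (median 1.01) and from 0.570 to 2.20 RPKM after HLU (median 1.38). With 14 to 73 reads a mouse, 4 of 8 HLU mice were above every control and HLU 2 was below every control. For Nog the log2 difference was 0.45 (standard error 0.26, 95% interval -0.10 to 0.99, limma adjusted p = 0.744, exact permutation p = 0.108). With the erythroid and granulocyte scores as covariates it was 0.15 (limma adjusted p = 0.755).

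**Figure D2:**
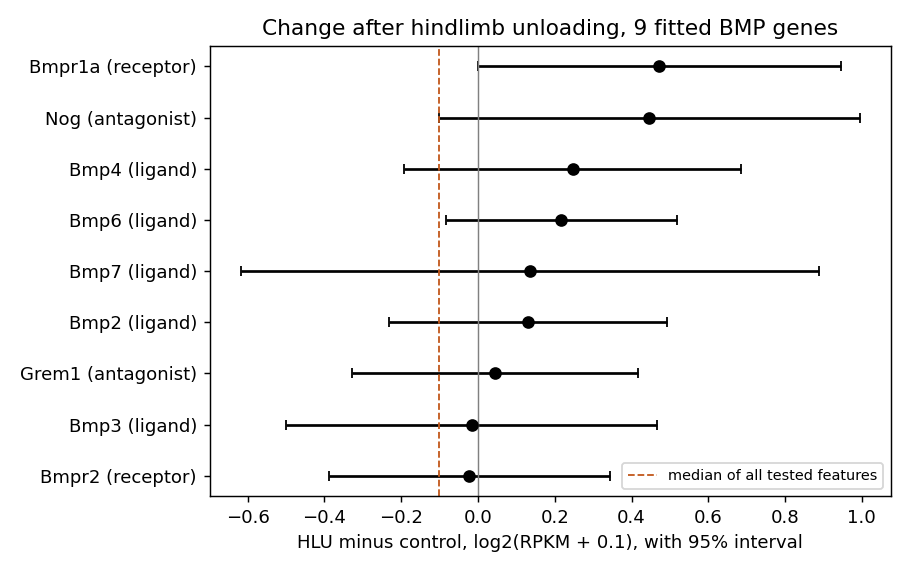
HLU minus control in log2(RPKM + 0.1) for the 9 genes that passed the filter (points, with 95% intervals from limma), the solid line at 0 and the dashed line at the median of all 16973 tested features, -0.10. Every interval includes 0, that of Bmpr1a from -0.00 to 0.95.

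Set side by side, 9 of the 10 genes passed the filter on low values and 0 of the 9 were called at an unadjusted p under 0.05 with a 1.2-fold change. Over all 16973 features tested, 188 were called higher after HLU (1.11%), 808 lower (4.76%) and 996 in either direction (5.87%), and none was called at an adjusted p under 0.1 (0%) by limma, where 1049 features had an unadjusted p under 0.05, nor by voom on recovered reads. Among the 9 genes, 7 had a log2 difference above 0 and 2 below it, Bmp3 and Bmpr2, with a median of 0.14. Over all features tested the median was -0.10 and 32.1% lay above 0. With median-of-ratios scaling the median of all features moved to -0.02, and with quantile normalization to 0.00, and under both Bmp3 and Bmpr2 turned to above 0 (0.07 and 0.06, and 0.10 and 0.05).

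The wider pathway was described from a list of 58 further genes, of which 57 were listed and 41 passed the filter. None was called in either direction. Of the 41, 30 had a log2 difference above 0 and 11 below it, with a median of 0.12, and the lowest adjusted p was 0.744 (limma). Of the antagonists 7 of 8 lay above 0, of the coreceptors 3 of 4, of the other ligands 3 of 4, of the other receptors 3 of 3, of the inhibitory Smads and Smurf genes 4 of 4, of the signal-carrying Smads 2 of 4, and of the target genes 4 of 9. The 6 most abundant were Sost, Id2, Fstl1, Twsg1, Bmp1 and Nbl1.

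Sost, which encodes the osteocyte product sclerostin, was at 69.0 ± 39.8 RPKM in controls and 93.4 ± 28.0 RPKM after HLU (SD, n = 8), a log2 difference of 0.59 (standard error 0.32, limma adjusted p = 0.744). Id2, a BMP target gene, was at 42.0 ± 7.58 and 41.0 ± 7.06 RPKM, and Fstl1, a follistatin-like secreted protein, at 33.2 ± 7.13 and 37.5 ± 8.11 RPKM. Twsg1, which modulates ligand binding, was at 15.5 ± 2.85 and 18.2 ± 4.06 RPKM. The procollagen protease Bmp1 was at 17.1 ± 9.87 and 15.4 ± 7.45 RPKM, and Nbl1, an antagonist of the Dan family, at 12.4 ± 7.96 and 14.3 ± 8.56 RPKM. Id1, the classical BMP target, was named after its values had been seen because it had the lowest log2 difference of the list, -0.25 (standard error 0.14, limma adjusted p = 0.744), with 5.02 ± 1.13 RPKM in controls and 4.14 ± 0.573 RPKM after HLU.

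Covariation between the genes was measured within groups, on log2 values centred on the mean of each group, over the 16 mice. Of the 36 pairs of the 9 genes, 7 passed an adjusted p of 0.05 by Pearson's r in permutations within groups, and 4 of the 7 also passed by rank. The 3 that did not pass by rank were Bmp4 with Bmp6 (adjusted p of rho 0.202, permutation), Bmp4 with Bmp7 (0.154) and Bmp6 with Bmp7 (0.0546). Bmp2 and Bmp3 varied together (Pearson's r = 0.793, permutation p = 0.00068, adjusted p = 0.0147, Spearman's rho = 0.714, permutation p = 0.00444), in the controls (r = 0.849) and in the HLU mice (r = 0.743). Leaving out Control 8 and HLU 5, whose Bmp2 lay farthest from the median, gave r = 0.785.

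Bmp4 varied with Bmp6 (r = 0.773, permutation p = 0.00148, adjusted p = 0.0147, rho = 0.524, permutation p = 0.0485) and with Bmp7 (r = 0.754, permutation p = 0.00151, adjusted p = 0.0147, rho = 0.583, permutation p = 0.0256). Both relations rested partly on Control 6 and HLU 4, the mice with the lowest Bmp4. Without them r was 0.407 with Bmp6 and 0.604 with Bmp7, and neither passed (permutation, adjusted p = 0.318 and 0.266). Bmp6 and Bmp7 gave r = 0.676 (permutation p = 0.00252, adjusted p = 0.0151, rho = 0.679, permutation p = 0.00758), and 0.520 without Control 6 and HLU 1. Bmp3 and Bmp7 gave r = 0.765 (permutation p = 0.00204, adjusted p = 0.0147, rho = 0.714, permutation p = 0.00404), and 0.767 without Control 4 and HLU 1.

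The receptors Bmpr1a and Bmpr2 varied together (r = 0.742, permutation p = 0.00184, adjusted p = 0.0147, rho = 0.857, permutation p = 0.00019), and so did Bmpr1a and Nog (r = 0.707, permutation p = 0.00458, adjusted p = 0.0236, rho = 0.738, permutation p = 0.0027). Without Control 2 and Control 7, the mice with the lowest Bmpr1a, r was 0.663 and 0.756. With 14 mice left in each case, 0 of the 36 pairs passed the adjusted threshold. Grem1 passed with none of the other 8 genes.

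**Figure D3:**
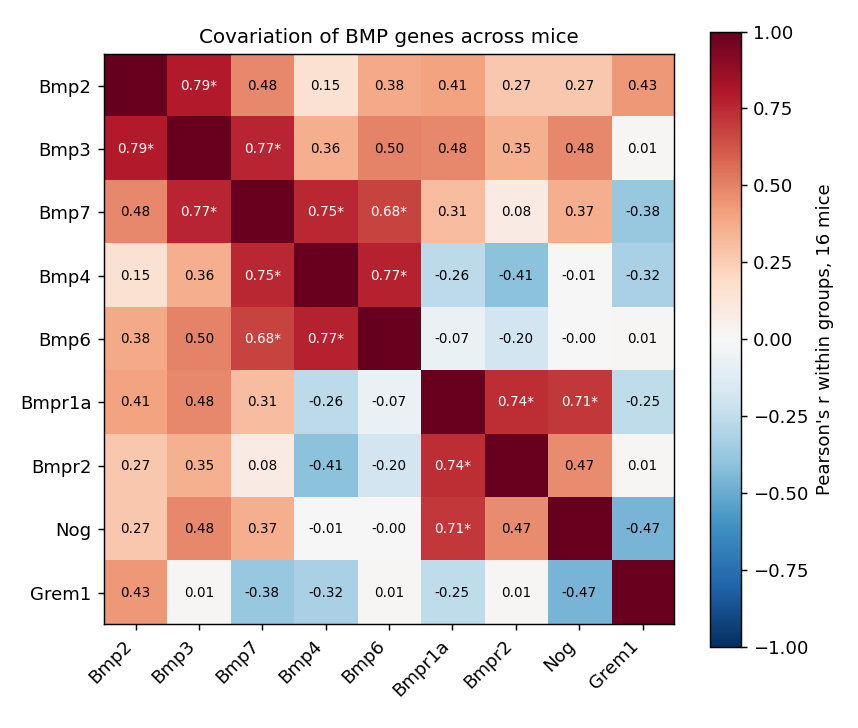
Pearson's r between the 9 genes over 16 mice, on log2(RPKM + 0.1) centred within groups, from -1 (blue) to 1 (red), with an asterisk where the permutation p adjusted over 36 pairs is under 0.05. The 7 marked pairs are Bmp2 with Bmp3, Bmp3 with Bmp7, Bmp4 with Bmp6 and Bmp7, Bmp6 with Bmp7, and Bmpr1a with Bmpr2 and Nog.

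The genes were set against marker scores of the cells that flushed bone can hold, each score the mean centred log2 level of its list. Of 27 relations of the 9 genes with the osteoblast lineage, erythroid and granulocyte scores, 8 passed an adjusted p of 0.05. Of the 5 ligands, 3 went with the osteoblast lineage score: Bmp7 (r = 0.896, permutation p = 3e-05, adjusted p = 0.00081, rho = 0.881, permutation p = 0.00011), Bmp3 (r = 0.867, permutation p = 0.00021, adjusted p = 0.00189, rho = 0.667, permutation p = 0.00906) and Bmp2 (r = 0.663, permutation p = 0.00719, adjusted p = 0.0272, rho = 0.50, permutation p = 0.0606). When the 2 mice with the most extreme scores were left out, r was 0.865, 0.823 and 0.589. Bmp4 (r = 0.483, permutation p = 0.0764, adjusted p = 0.147, rho = 0.548, permutation p = 0.0389, r = 0.411 without 2 mice) and Bmp6 (r = 0.534, permutation p = 0.0374, adjusted p = 0.101, rho = 0.690, permutation p = 0.00658, r = 0.465 without 2 mice) did not pass. With this score regressed out, r of Bmp3 with Bmp7 became -0.05 (permutation, adjusted p = 0.913), and the calls were also lost for Bmp2 with Bmp3 (r = 0.583, adjusted p = 0.097), Bmpr1a with Nog (0.646, adjusted p = 0.097) and Bmp6 with Bmp7 (0.53, adjusted p = 0.15). Bmp4 with Bmp7 (0.827, adjusted p = 0.0104), Bmp4 with Bmp6 (0.695, adjusted p = 0.03) and Bmpr1a with Bmpr2 (0.718, adjusted p = 0.03) still passed. This score differed little between the groups (0.10 higher after HLU, exact permutation p = 0.687).

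Bmpr1a and Nog ran opposite to the blood cell scores. Bmpr1a fell as the granulocyte score rose (r = -0.829, permutation p = 0.00015, adjusted p = 0.00189, rho = -0.869, permutation p = 9e-05), in controls (r = -0.854) and HLU mice (r = -0.867) alike, and without the 2 farthest mice (r = -0.853). It also ran opposite to the erythroid score (r = -0.742, permutation p = 0.00137, adjusted p = 0.00925, rho = -0.714, permutation p = 0.00394, r = -0.651 without 2 mice). HLU 2 and HLU 3, the 2 HLU mice with Bmpr1a inside the control range, had the highest granulocyte scores of the 16 mice, 0.88 and 0.63. Both mice are part of the relation just given. HLU 8 and Control 1 had close scores (0.34 and 0.33) with Bmpr1a at 9.21 and 5.94 RPKM. A cause was not tested.

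Nog gave r = -0.738 with the granulocyte score (permutation p = 0.004, adjusted p = 0.018, rho = -0.679, permutation p = 0.00761, r = -0.534 without 2 mice) and r = -0.741 with the erythroid score (permutation p = 0.00313, adjusted p = 0.0169, rho = -0.690, permutation p = 0.00639, r = -0.616 without 2 mice). Bmpr2 gave r = -0.687 with the erythroid score (permutation p = 0.00805, adjusted p = 0.0272, rho = -0.690, permutation p = 0.00618, r = -0.573 without 2 mice). Without the 2 farthest mice 3 of the 27 relations passed the adjusted threshold. All values of a library share its scaling, and the part of blood cell content in the differences between groups was not tested beyond the covariate fits above.

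The other 8 marker scores were examined after the first relations had been seen, and 7 of these 72 relations passed an adjusted p of 0.05. Grem1 went with the marrow stroma score (r = 0.796, permutation p = 0.00045, adjusted p = 0.0108, rho = 0.786, permutation p = 0.00111, r = 0.941 without 2 mice) and, less closely, with the B lymphocyte score (r = 0.694, permutation p = 0.0047, adjusted p = 0.0483, rho = 0.524, permutation p = 0.0494, r = 0.570 without 2 mice). Bmp7 went with the chondrocyte score (r = 0.815), the endothelial score (r = 0.759) and the osteocyte score (r = 0.733), with permutation p of 0.00077, 0.00106 and 0.00285, adjusted p of 0.0139, 0.0153 and 0.0342, rho of 0.714, 0.774 and 0.786 (permutation p of 0.00476, 0.00129 and 0.00136), and r of 0.747, 0.717 and 0.610 without 2 mice. The megakaryocyte score ran opposite to Nog (r = -0.839, permutation p = 0.00013, adjusted p = 0.00936, rho = -0.774, permutation p = 0.0013, r = -0.760 without 2 mice) and to Bmpr1a (r = -0.804, permutation p = 0.00041, adjusted p = 0.0108, rho = -0.702, permutation p = 0.00534, r = -0.725 without 2 mice).

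The libraries also differed in ways that follow no cell type list. The slope of log2 level on transcript GC content over 14774 genes ran from -0.60 to 0.40 per 10 percentage points, with a difference of 0.0029 between the groups (exact permutation p = 0.989). The reads on listed features were 88.8 ± 4.28% of the scaling total in controls and 85.0 ± 5.29% after HLU (SD, n = 8, exact permutation p = 0.133). Of 18 relations of the 9 genes with these 2 measures, also chosen after the first results had been seen, 2 passed an adjusted p of 0.05.

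Bmp4 rose with the GC slope (r = 0.787, permutation p = 0.00124, adjusted p = 0.0112, rho = 0.714, permutation p = 0.00413, r = 0.718 without Control 4 and HLU 4). The transcripts of Bmp4 (52.5% GC), Bmp7 (55.3%), Bmp6 (57.8%), Nog (56.2%) and Bmp2 (52.5%) lie above the median of 49.1%. For Nog and Bmp2, r with the slope was -0.09 and -0.19 (permutation p = 0.736 and 0.499, adjusted p = 0.736 and 0.642, rho = -0.04 and -0.24 with permutation p = 0.914 and 0.399, r = 0.19 and 0.05 without 2 mice). The part of transcript GC in these relations was not tested. Grem1 (44.7% GC) ran opposite to the slope by rank (rho = -0.738, permutation p = 0.00264, adjusted p = 0.0238) and did not pass by Pearson's r (-0.601, permutation p = 0.0178, adjusted p = 0.0803, r = -0.666 without 2 mice). The relations of Bmp7 (r = 0.649, permutation p = 0.0132, adjusted p = 0.0794, rho = 0.560, permutation p = 0.0333, r = 0.751 without 2 mice) and Bmp6 (r = 0.487, permutation p = 0.0675, adjusted p = 0.152, rho = 0.595, permutation p = 0.0235, r = 0.467 without 2 mice) did not pass. With the slope as a covariate the log2 difference of Bmp4 between groups stayed at 0.24 and its unadjusted limma p was 0.0964.

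Grem1 rose with the share of reads on listed features (r = 0.876, permutation p = 1e-05, the smallest these permutations can give, adjusted p = 0.00018, rho = 0.810, permutation p = 0.00073, r = 0.836 without HLU 6 and HLU 7). Adding that share to the fit put the log2 difference of Grem1 at 0.30 (limma unadjusted p = 0.0119, adjusted p = 0.819), against 0.05 without it, and that of Bmpr1a was 0.28 against 0.47.

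**Figure D4:**
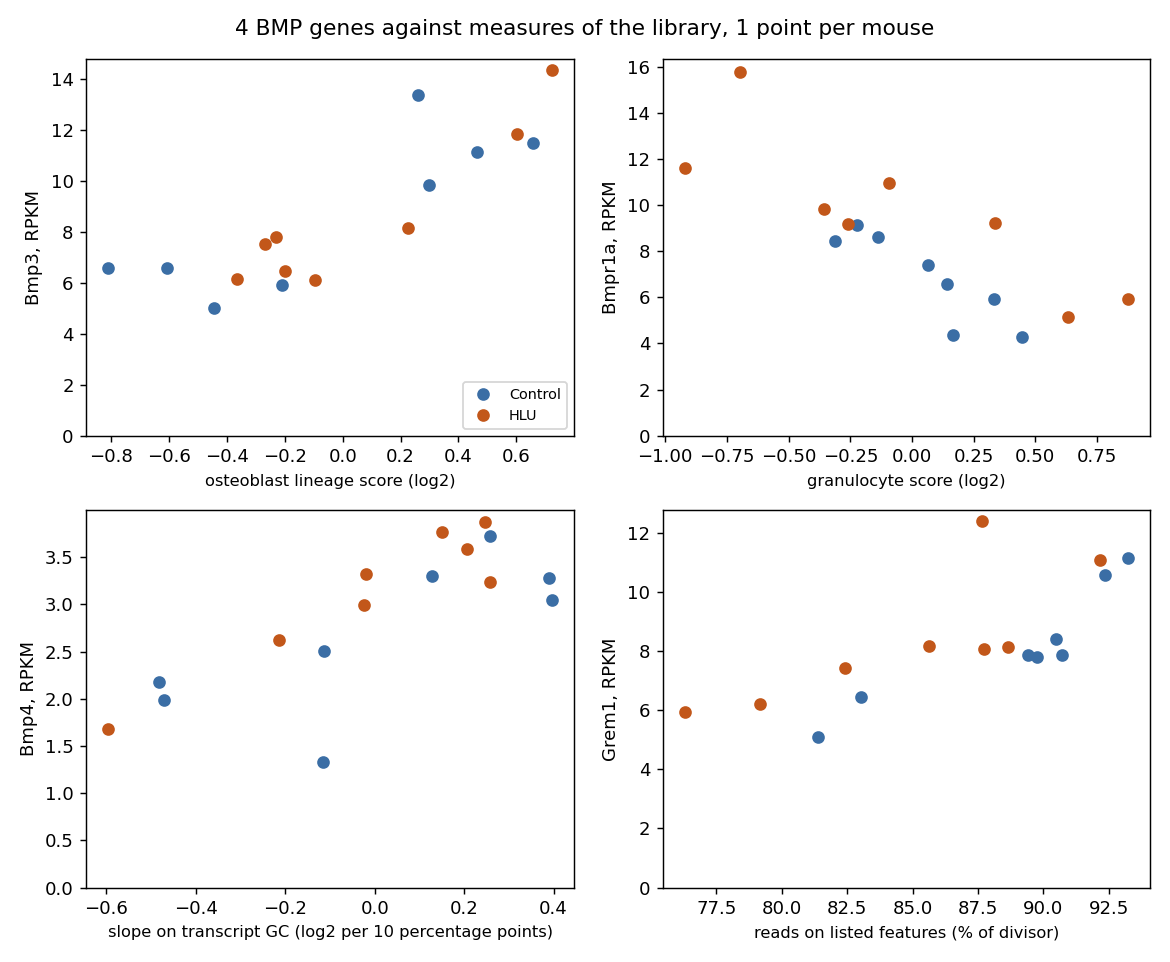
Level in RPKM (vertical axes, from 0) of Bmp3 against the osteoblast lineage score, Bmpr1a against the granulocyte score, Bmp4 against the slope on transcript GC and Grem1 against the share of reads on listed features, 1 point per mouse, controls in blue and HLU mice in orange. Bmp3, Bmp4 and Grem1 rise along their axes and Bmpr1a falls, with r of 0.867, 0.787, 0.876 and -0.829 on log2 values centred within groups.

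For each of the 9 genes the 2 uniquely named features with the highest r over the 16 mice are given as a description. Bmp3 was followed most closely by Sp7, the osteoblast transcription factor osterix (r = 0.944), and Msi1 (r = 0.918), and Bmp2 by Sema6d (r = 0.940) and Fam78b (r = 0.918). The closest to Bmp7 were Gpr133 (r = 0.962) and Tbx2 (r = 0.955), to Bmp4 Gas6 (r = 0.918) and Plekhn1 (r = 0.911), and to Bmp6 Adipoq, the adipocyte hormone adiponectin (r = 0.895), and Rtn4rl1 (r = 0.872). With the adipocyte score as a whole, Bmp6 did not pass (r = 0.363, permutation p = 0.192, adjusted p = 0.363, rho = 0.452, permutation p = 0.0944, r = 0.389 without 2 mice).

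The closest to Bmpr1a were Mbnl2 (r = 0.952) and Asph (r = 0.951), and to Bmpr2 Gm14393 (r = 0.866) and Pja2 (r = 0.848). Nog was closest to Ttc19 (r = 0.894) and Gm23123 (r = 0.880), and Grem1 to Pou2f1 (r = 0.962) and 1200011I18Rik (r = 0.938). None of these features was closest to more than 1 of the 9 genes.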

How the data were processed

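RNA from cortical bone of 16 mice (8 control, 8 HLU, as the titles label them) was prepared by the authors with an unstranded TruSeq v2 kit, sequenced 8 libraries a lane and aligned with TopHat2. The submitters' processing notes name the build mm9 and DESeq2, and the counting tool and annotation are not given in the sources used here. The deposited values are read as RPKM because each is a whole number of reads divided by a gene length and a library total.

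These totals, and whole reads within 0.02 of a read, were recovered for 16973 of the 16973 features tested, those whose mean over all mice reached 0.5 RPKM. HLU was compared with control by limma 3.58.1 (R 4.3.3) on log2(RPKM + 0.1), with a variance trend, no covariate and Benjamini-Hochberg adjustment over all of them, so that a fold of a low gene is understated. A call needed at least 1.2-fold with an unadjusted p under 0.05, or with an adjusted p under 0.1. For single genes and scores, an exact permutation test (two-sided) covered the 12870 splits of the mice, and correlations by 100000 permutations within groups (Python 3.11.15, numpy 2.4.6, scipy 1.17.1, pandas 2.3.3, matplotlib 3.10.9). The script was tested on simulated data.

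GENCODE M21 and RefSeq on GRCm38 gave positions, overlapping genes, GC content and promoters by symbol. Transcript GC was found for 93.7% of uniquely named features. Promoters were matched for 6 of the 10 genes. Of the kept features 1213 share a symbol and were not used by name. The 10 muscle markers and Hfe2 were not analysed here. The genes and lists were chosen with earlier results of these data known. Named were the 10 genes, any of the wider pathway list that was called plus its 6 most abundant, and the 2 features most like each gene. Alternatives were another pseudocount (1, 0.01), filter, scaling, covariates, weights, a replicate block, no trend, 14 libraries and voom on recovered reads. Intervals come from limma and cover the spread between mice, and the floor of 3 reads covers counting error only.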

Additional observations from a re-analysis of the deposited data

Results flagged for a closer look

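Of the 20 sets of 8 values made by the 10 genes and 2 groups, 2 held a mouse far from the others, and chance flags about 1 in 20. Bmp4 in HLU 4 was at 1.675 RPKM, below the other 7 HLU mice by 0.532 of the range of the group on the log2(RPKM + 0.1) scale, just past Dixon's critical value, and by 0.432 of the range in RPKM, which is not past it. HLU 4 also had the lowest slope on transcript GC, -0.60, and the highest Bmpr1a (15.8 RPKM) and Nog (2.20 RPKM). Bmp6 in Control 6 was at 2.181 RPKM, below the other 7 controls by 0.631 of the range on the log2 scale and 0.544 in RPKM, both past it, and Bmp4 was lowest in the same mouse, at 1.33 RPKM. The part of these 2 mice in the relation of Bmp4 with Bmp6 is given above.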

How the results depend on the processing

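The 9 fitted genes kept an adjusted p above 0.1 under every alternative run. Counts called of the 9 were 1 with a pseudocount of 1, 1 at a mean of at least 2 RPKM (where Bmp7, Bmpr2 and Nog could not be fitted) and 1 with the replicate block, each time Bmpr1a, then 2 with median-of-ratios scaling and 2 with quantile normalization (Bmpr1a and Bmp6), and 1 with the share of reads as a covariate (Grem1; this covariate, the GC slope and the score relations without 2 mice were added after seeing the data). Of the 16973 features, 901 were called with a pseudocount of 1, 1039 with the replicate block and 769 with the share covariate. The 2 scalings called 777 and 824 of them. At a mean of at least 2 RPKM, 735 of the features fitted there were called. Those are fewer than the 16973, and their number is not given here, so no share can be set beside the count. Bmpr1a lay between 0.28 and 0.59 on the log2 scale throughout. Replicate numbers do not pair the mice: 3 of 8 same-numbered pairs correlated above 0.1 (-0.166 to 0.510), and 1 of 8 controls matched its own number best. With the replicate block, Bmpr1a was at 0.47 (limma unadjusted p = 0.0421, adjusted p = 0.725).

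Signs turned for Bmp2 to -0.0414 and Grem1 to -0.0779 with the erythroid and granulocyte covariates; for Bmp2 to -0.0038, Bmp7 to -0.0416 and Grem1 to -0.0415 without the 2 smallest libraries; for Bmp3 to 0.0693, Bmpr2 to 0.0583 and Id2 to 0.0532 with median-of-ratios scaling and to 0.0995, 0.0533 and 0.0959 with quantile normalization. Bmp1 became 0.0162 with quantile normalization and 0.33 with the blood covariates, and with the share covariate Bmp7 became -0.18, Id2 0.12 and Nbl1 -0.33. The correlation of Bmp3 with Bmp7 became -0.0492 with the osteoblast score out. Counts without the 2 farthest mice were 0 of 36 pairs and 3 of 27 relations. The causes were not tested.

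Counts called of the wider list were 1 without a filter, 4 and 5 with the 2 scalings, 4 with the blood covariates, 3 with the osteoblast covariate, 1 with array weights and 3 with the share covariate. Over all features, 1439 were called without a filter, 777 and 824 with the 2 scalings and 1932 with the blood covariates. The totals were 972 with the osteoblast covariate, 1433 with array weights and 769 with the share covariate. Of all features, 376 rose and 401 fell with median-of-ratios scaling and 460 and 364 with quantile normalization, against 188 and 808. Calls were 1932 (813 higher) with the blood covariates and 1644 (1385 lower) with the GC slope. Higher calls were 391 without a filter, 106 at a mean of at least 2 RPKM and 108 without the 2 smallest libraries. At an adjusted p under 0.1 there was 1 call without a filter, 1 without the trend and 1 with the share covariate.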
